A study of Mus musculus with 3 samples.

Results

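The comparison set leukocytes from dilated aortas directly against leukocytes from normal aortas, lineage by lineage, in a mouse study of plaque macrophages and abdominal aortic aneurysm. Its members were cells of 2 libraries that passed exactly 1 of 4 lineage gates, and there were 2262 of them (540 control and 1722 aneurysm) among 3548 kept cells in these libraries and 5369 in the whole series. A B cell held at least 2 unique molecular identifiers (UMIs, each standing for 1 captured transcript molecule) of Cd79a and Ms4a1 summed, and a T cell at least 2 of Cd3d, Cd3e and Cd3g. In a macrophage C1qa, C1qb and C1qc made up at least 0.4% of the UMIs, and a classical monocyte held at least 1 UMI of Chil3 and 2 of Plac8. These gate genes chose the cells and are not results.

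The control library came from 5 C57Bl/6 mice on chow. The aneurysm library came from 4 Apoe-/- mice (labelled C57Bl/6; ApoE-/-) that ate a Western diet for 16 weeks, breathed cigarette smoke and had developed a measurable dilatation. A further library, labelled room air, came from 5 Apoe-/- mice on the same diet without smoke, and its levels are given only beside the others. Suprarenal aortas of a group were pooled before sorting of CD45+CD31- and CD45-CD31+ cells, so every group is 1 library and no animal can be told from another. The aneurysm mice differed from the controls in genotype, diet, smoke and selection for dilatation, and these cannot be told apart in this comparison. Mice that breathed smoke without an aneurysm were not analysed here. The labels give neither the Apoe allele nor the age or sex of the animals.

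Loss of apolipoprotein E, the ligand through which remnant lipoproteins are cleared, raises plasma cholesterol and makes mice prone to atherosclerosis. The normal aortic wall holds resident macrophages that carry the hyaluronan receptor Lyve1, the folate receptor Folr2 and the scavenger receptor Cd163, whereas plaques also hold lipid-loaded macrophages marked by Trem2, Gpnmb and Spp1. Monocytes that enter the wall can become either macrophages or dendritic cells. Lymphocytes in diseased wall include T cells, B cells and plasma cells, and extracellular proteases made by leukocytes can degrade its matrix.

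For each lineage the UMIs of all gated cells of a library were summed and expressed as counts per 1e6 UMIs (CPM). With 1 library on each side there is no test and no p-value. The ratio of the levels carries an exact 95% interval that covers counting error only, and a gene was counted as past the rule where this whole interval lay beyond 1.5-fold and at least 5 cells of the higher library held a UMI. The words higher and lower below refer to the aneurysm library. A ratio against a library with no UMI is given as a lower bound, computed against a floor of 3 UMIs over the gated cells.

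The libraries differed in depth and in viability before any gene is considered. Of the control barcodes 773 were kept and of the aneurysm barcodes 2775, and the deposited barcodes had a median of 2681 and 4476 UMIs, with stated viabilities of 73% and 94%. No barcode occurred in both libraries. Median UMIs of the gated cells were higher in the aneurysm library in all 4 lineages, at 3204 and 6630 in control and aneurysm macrophages, 3415 and 6258.5 in monocytes, 1981.5 and 2807 in T cells, and 1313.5 and 2414 in B cells. Cells that passed more than 1 gate made up 5.10% of gated control cells and 20.5% of gated aneurysm cells. Their median UMI counts were 6637 and 9447, against 2507 and 3130.5 in cells of 1 gate, and they were left out of the main values. Free RNA, estimated from genes of other cell types, made up between 0% and 6.71% of the UMIs of the control lineages and between 8.92% and 13.3% of the aneurysm lineages. In macrophages and monocytes it was read from lymphocyte genes, after cells that also passed a T or B gate were left out. The 0% belongs to the 27 control monocytes, where most of these genes had no UMI. With thinned gates the estimate was 28.3% in aneurysm macrophages, 24.0% in aneurysm monocytes and 13.9% in control macrophages. In B cells of both libraries and in control T cells it was lower with thinned gates. Free RNA estimates for single genes below use the main gates. Its part in a result was not tested beyond the values given beside that result.

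The defining markers of each lineage were present in both libraries. Summed over 10 macrophage markers, macrophages held 5478 CPM in control and 6342 in aneurysm. The 7 T markers summed to 1794 and 1871 CPM in T cells, and the 7 B markers to 7041 and 5214 in B cells. The 10 monocyte markers in monocytes summed to 63492 and 22360 CPM, of which Lyz2 alone held 58214 and 19108. Among the markers of these 4 sums none was at 0 in its own lineage. The monocytes of the control library were only 27 cells, and neutrophil markers summed to 22162 CPM in them against 1497 in the 156 aneurysm monocytes. Most of the control sum was S100a8 (15801 CPM) and S100a9 (6202), which were found in only 11.1% and 7.41% of control monocytes. In aneurysm monocytes they stood at 787 and 444 CPM and were found in more of the cells, 35.9% and 25%.

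The make-up of the cell suspension differed between the libraries. Macrophages made up 39.7% of kept control cells (307 cells, exact 95% interval 36.2% to 43.3%) and 14.5% of aneurysm cells (401 cells, 13.2% to 15.8%). T cells went the other way, from 13.2% (102 cells) to 25.6% (710 cells). Classical monocytes made up 3.49% (27 cells) and 5.62% (156 cells), and B cells 13.5% (104 cells) and 16.4% (455 cells). A gate on a number of UMIs passes deep cells more easily, so the shares were repeated with every cell thinned to 1000 UMIs. Macrophages then stood at 42.3% and 23.3% and T cells at 10.1% and 19.0%, while monocytes (2.20% and 3.21%) and B cells (12.7% and 14.8%) differed less. The macrophage gate is a share of UMIs, and thinning moved its pass rate little. With cells of more than 1 gate kept, macrophages made up 43.1% of control and 25.3% of aneurysm cells, and 43.1% and 25.6% after thinning. The rule of 1 gate kept 307 of 333 control macrophages but only 401 of 701 aneurysm macrophages, so it entered the macrophage shares given first. The aneurysm share over the control share was 0.364 for macrophages (0.313 to 0.424) and 1.94 for T cells (1.57 to 2.41), and with thinned gates 0.551 and 1.88. For B cells the interval of this ratio reached below 1 (1.22, 0.983 to 1.52), so a difference was not detectable with the gates as given. It lay above 1 with stricter gates (1.36, 1.09 to 1.71), with cells of more than 1 gate kept (1.57, 1.29 to 1.92) and without B cells that had over 0.5% of UMIs from 8 myeloid genes (1.27, 1.02 to 1.61). For monocytes the ratio was 1.61 (1.06 to 2.52), and its interval reached below 1 with stricter gates (0.986) and with thinned gates (0.862). The same held among cells with a Ptprc UMI (1.34, 0.825 to 2.29). With at most 0.5% of UMIs from S100a8 and S100a9 and at least 4 of 8 monocyte markers it was 1.13 (0.700 to 1.89). The interval stayed above 1 with cells of more than 1 gate kept (2.16) and without doublet-score removal (1.07). All of these are shares of sorted, captured cells of 1 pool, and numbers of cells in the wall were not measured.

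**Figure D1:**
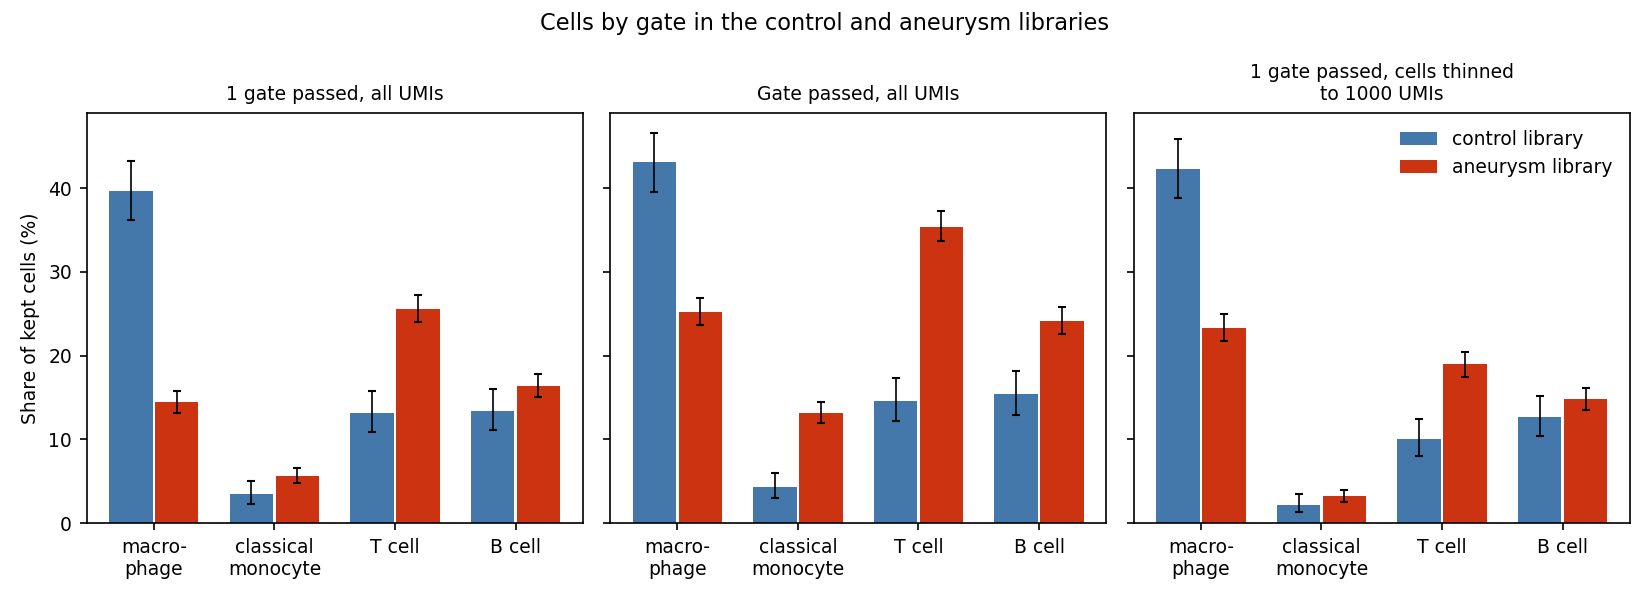
Shares of kept cells (%, exact 95% intervals) that passed each lineage gate in the control and aneurysm libraries, with gates as given and with cells thinned to 1000 UMIs. The macrophage share is lower and the T cell share higher in the aneurysm library under both ways of gating.

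Apoe checked the labelled genotype. Its control levels were 19562 CPM in macrophages, 6042 in monocytes, 723 in T cells and 1221 in B cells, and the aneurysm levels were 25.3, 7.35, 5.02 and 4.85 CPM. The room air library, also Apoe-/-, had 30.6, 13.9, 6.00 and 4.21 CPM. Apoe was therefore low in both Apoe-/- libraries in every lineage, and in macrophages it was 772-fold lower in aneurysm (613 to 988). The gene lies at chr7:19696109-19699188 on the minus strand (ENSMUSG00000002985, mm10). After thinning, 99.3% of control macrophages and 49.0% of control T cells had an Apoe UMI, against 2.49% and 0.282% in aneurysm. With free RNA subtracted the log2 ratio moved from -7.12 to -5.43 in T cells and from -7.88 to -7.07 in B cells. A UMI in a control T or B cell can thus be free RNA or come with other myeloid transcripts. Their part in these levels was not tested further.

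Of 2117 genes measured in all 4 lineages, 25 (1.18%) were higher past the rule in at least 3 and 15 (0.709%) were lower. Calls were also shared between pairs. Among genes measured in both, 58 of 97 higher in monocytes were also higher in macrophages, where 222 of 2364 were higher. For T cells this was 55 of 112 (257 of 4548), and for B cells 20 of 40 (232 of 3973). Of the lower genes, 12 of 46, 16 of 27 and 29 of 80 were also lower in macrophages, in the same order. Over all genes measured in both, 91 of 2364, 133 of 4548 and 131 of 3973 were lower there. Lineages of a library share its animals, its free RNA and its handling, so they do not replicate each other. In 6 ways of choosing cells or RNA differently, 3 of the 25 higher genes (Ctsb, Actb and Ly6a) stayed past the rule in at least 3 lineages each time. So did 3 of the 15 lower ones (Apoe, Retnla and Klf2).

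Klf2, a zinc-finger transcription factor that keeps lymphocytes quiescent and recirculating and restrains inflammatory genes in myeloid cells, was lower in all 4 lineages. Its level in macrophages was 756 CPM in control and 193 in aneurysm, in monocytes 743 and 213, in T cells 1212 and 331, and in B cells 1201 and 350. The room air levels were 207, 495, 453 and 696 CPM. The ratios were alike across lineages, with control levels 3.91-fold (3.51 to 4.36), 3.49-fold (2.63 to 4.58), 3.67-fold (3.20 to 4.19) and 3.43-fold (2.93 to 4.01) above aneurysm levels. The difference between any pair of the log2 ratios was at most 0.19 in size, and each of its intervals included 0. After thinning to 1000 UMIs, cells with a Klf2 UMI made up 43.3% of control and 15.5% of aneurysm macrophages, 59.3% and 19.9% of monocytes, 68.6% and 24.5% of T cells, and 71.2% and 26.6% of B cells. A lower level thus went with fewer cells in which the transcript was found.

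Klf2 lies at chr8:72319033-72321656 on the plus strand (ENSMUSG00000055148, mm10). Its promoter is shown because its level, pooled over the gated cells, was lower by a like factor in each of the 4 lineages. Within macrophages the factor was not alike. Cells with at least 3 UMIs of Lyve1, Folr2 and Cd163 summed held 846 CPM in control and 450 in aneurysm (ratio 0.531, 0.466 to 0.604). The 250 bases at chr8:72318812-72319061 are from RefSeq (GRCm38.p6, plus strand, 5′ to 3′), with GC boxes and a match to the MEF2 consensus in capitals.
Klf2 promoter: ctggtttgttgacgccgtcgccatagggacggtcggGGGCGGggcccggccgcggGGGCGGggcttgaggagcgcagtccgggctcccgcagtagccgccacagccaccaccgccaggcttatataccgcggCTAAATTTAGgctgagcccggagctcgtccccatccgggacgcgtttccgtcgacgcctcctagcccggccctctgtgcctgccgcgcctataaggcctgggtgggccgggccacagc
On either strand this window held 2 GC boxes (GGGCGG), which 32.7% of 32851 promoter windows of the same length hold at least once. It held 1 match to the MEF2 consensus, found in 2.92% of windows, and 1 KLF-type CACCC, found in 52.0%. The letters of an interferon-type element (GAAA, any 2 letters, GAAA), a GAS-type element (TTCNNNGAA) and the CArG box were not in it. A match is a run of letters and not a shown binding site.

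Retnla, a secreted protein of alternatively activated macrophages, was lower in macrophages (6401 CPM in control, 381 under room air and 741 in aneurysm), in T cells (3180, 74.9 and 236) and in B cells (4428, 71.6 and 120). In monocytes it stood at 265, 365 and 136 CPM and was not past the rule. T and B cells are not known as a source of Retnla, and a share of these lymphocytes also carried other myeloid transcripts. Cells that held RNA of another lineage, for lymphocytes over 0.5% of UMIs from 8 myeloid genes, were therefore left out in 1 of the alternative choices. Without them the level in control fell from 3180 to 365 CPM in T cells and from 4428 to 438 in B cells, and it was 29.6 and 35.8 CPM in aneurysm. The direction therefore did not rest on those cells, while most of the level did.

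Ly6a (Sca-1), a surface protein of activated lymphocytes that responds to interferon, was higher in all 4 lineages. In B cells it rose from 181 to 769 CPM, with 636 in room air, which is 4.25-fold (3.05 to 6.10). Macrophages had 10.5 CPM in control and 344 in aneurysm, and monocytes 31.9 (3 UMIs) and 287, a ratio of 9.02 (3.06 to 44.0). In T cells the levels were 158 and 338 CPM, a ratio of 2.14 (1.56 to 3.04) that was past the rule in only 3 of the 6 alternative choices of cells or RNA. The split by co-receptor differed, since cells with Cd4 UMIs held 556 CPM in control and 507 in aneurysm, whereas cells with Cd8 UMIs held 92.0 and 270. Only 10 control cells carried Cd4. Ly6a is one of several near-identical Ly6 genes, so its counts are uncertain where reads could come from a relative.

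Actb, the cytoskeletal actin, was higher in every lineage, from 4540 to 10297 CPM in macrophages, 3483 to 13911 in monocytes, 3996 to 7720 in T cells and 4182 to 7103 in B cells. In the room air library it stood at 9768, 10313, 8661 and 7126 CPM. Both Apoe-/- libraries thus lay above control in each lineage. Actb was picked out after its values were seen.

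The free RNA estimates of the remaining shared genes differed. Spp1 (osteopontin, a secreted matrix protein of lipid-associated macrophages) had 7.03 CPM in control macrophages and no UMI in the other control lineages. Its aneurysm levels were 4853 CPM in macrophages, 1312 in monocytes, 1013 in T cells and 192 in B cells. In aneurysm B cells the free RNA estimate came to 136% of this level, so that no UMI was left after its subtraction, in T cells to 28.2% and in macrophages to 3.96%. A few cells dominated elsewhere, since 1 cell held 50.7% of the monocyte Spp1 UMIs of these libraries and another 57.2% of those in T cells. Fabp5, a fatty acid carrier, rose from 11.4 to 898 CPM in macrophages, 31.9 to 516 in monocytes, 36.4 to 246 in T cells and 15.1 to 195 in B cells. With free RNA subtracted its log2 ratio went from 2.68 to 2.33 in T cells and from 3.47 to 3.06 in B cells. It was past the rule in neither co-receptor subset of T cells. Cells with Cd8 UMIs held 46.0 and 96.4 CPM (ratio 2.09, 0.935 to 5.82), and cells with Cd4 UMIs 139 (3 UMIs) and 118. Cxcl16, which is both a chemokine and a receptor for oxidised lipoprotein, rose from 167 to 752 CPM in macrophages and 10.6 to 223 in monocytes. In T cells it rose from 12.1 to 118 CPM and in B cells from 5.03 to 92.8. The free RNA estimate was 44.3% of the aneurysm Cxcl16 level in T cells and 51.6% in B cells, against 4.69% in macrophages.

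Ctsb and Ctsd encode lysosomal proteases. Ctsb rose from 3407 to 7339 CPM in macrophages, 966 to 2883 in monocytes and 226 to 879 in T cells. In B cells it stood at 392 and 598 CPM and was not past the rule (ratio 1.53, 1.21 to 1.95). Ctsd was past the rule in all 4 lineages, from 523 to 2012 CPM in macrophages and 95.6 to 782 in monocytes, but only from 202 to 439 in T cells and 65.3 to 195 in B cells. In the alternative choices of cells or RNA it was past the rule in 3 of 6 in T cells and 4 of 6 in B cells. The free RNA estimate was 52.5% of the aneurysm Ctsb level in T cells and 70.3% in B cells, and 29.4% and 60.3% of the Ctsd level. Summed macrophage markers also differed in T cells, at 303 CPM in control and 595 in aneurysm, and their part in these results was not tested.

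**Figure D2:**
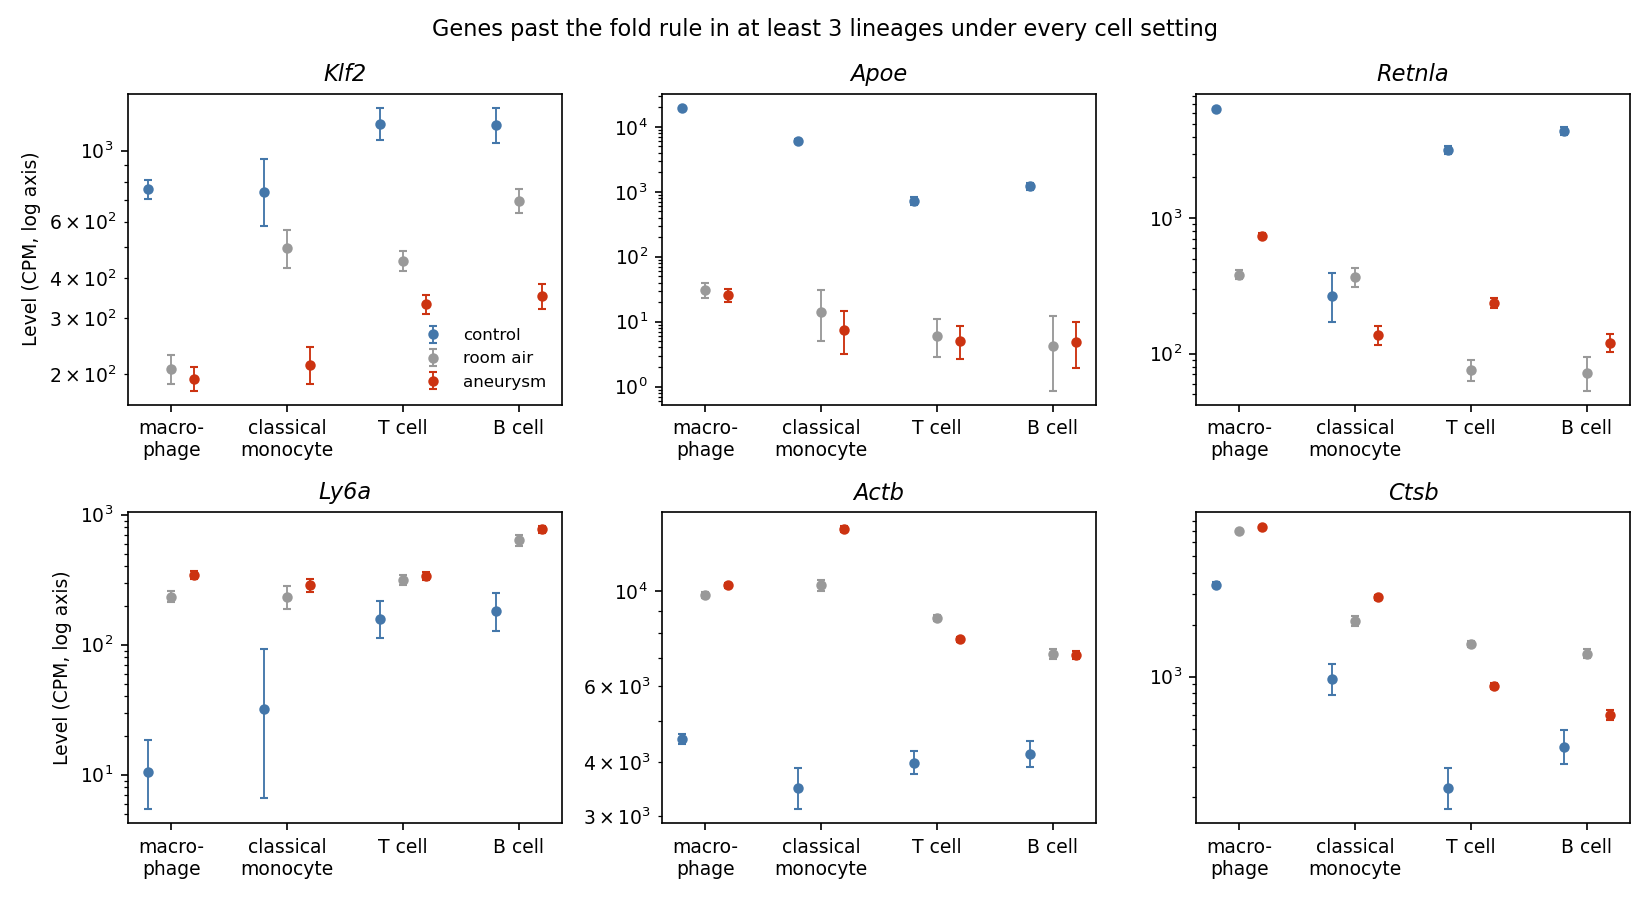
Levels (CPM of summed UMIs, log scale, exact 95% counting intervals) of genes past the rule in several lineages, by lineage and library. Klf2 is lower and Actb higher in both Apoe-/- libraries than in control in each of the 4 lineages.

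In macrophages 9106 genes were measured. Of these, 444 (4.88%) were higher and 422 (4.63%) lower past the rule, and the median log2 ratio over all of them was 0.02. Of the called genes, 312 and 283 stayed past the rule in all 6 alternative choices. The number of genes measured differed between lineages with the number of UMIs, so the counts of different lineages are not compared.

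The higher macrophage genes with the firmest bounds included Gpnmb and Spp1, known from lipid-associated macrophages, and genes with other roles. Gpnmb, a transmembrane glycoprotein of lipid-loaded and phagocytic macrophages, had no UMI in 307 control cells and stood at 396 CPM in aneurysm (1127 UMIs in 108 cells), at least 150-fold higher. Spp1 was 691-fold higher (350 to 1600). AA467197 rose from 1.76 CPM (2 UMIs) to 154, a ratio of 87.9 (24.2 to 728). Apoc4, a neighbour of Apoe in the apolipoprotein cluster, had no UMI in control and 37.6 CPM in aneurysm, at least 14.3-fold higher. Ccl17, a chemokine of dendritic cells and some macrophages, had no UMI in control and 50.6 CPM in aneurysm, at least 19.2-fold higher, with 63.2% of its UMIs in 1 cell. Jchain, an immunoglobulin-joining protein of plasma cells, was among these genes at 0 and 55.2 CPM, and here the free RNA estimate came to 140% of the level.

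Genes of lipid-loaded macrophages were mostly higher. Of 22 measured members, 16 were higher and 1 lower past the rule, with a median log2 ratio of 1.59 beside 0.02 over all genes. Lgals3, a galactose-binding lectin of phagocytes, rose from 496 to 4403 CPM (8.87-fold, 8.16 to 9.67). Il1rn, the antagonist of the interleukin 1 receptor, rose from 2.63 CPM (3 UMIs) to 106, a ratio of 40.3 (13.7 to 197). Abcg1, which exports cholesterol to lipoproteins, rose from 14.9 to 178 CPM (11.9-fold, 7.36 to 20.6). It also belongs to the list of liver X receptor targets and cholesterol efflux, where 7 of 15 were higher and none lower, with a median of 1.51. Scd2, a fatty acid desaturase of that list, went from 0.878 CPM (1 UMI) to 26.4, a ratio of 30.0 (5.23 to 1202). The exception was Cd36, the scavenger receptor for oxidised lipoprotein, which was lower at a log2 ratio of -2.57. These lists were chosen with earlier results of these data known, so their directions do not count as independent evidence.

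Resident macrophage genes were lower. Of 23 members, all measured, 21 were lower past the rule and none higher, with a median log2 ratio of -2.56. Lyve1 stood at 763 CPM in control, 62.3 under room air and 63.3 in aneurysm, which is 12.1-fold lower in aneurysm than in control (10.3 to 14.2). Cd163, the haemoglobin scavenger receptor, stood at 516, 88.4 and 53.8 CPM, and Timd4, a receptor for dying cells, at 108, 16.4 and 8.09. Pf4, a chemokine of platelets and resident macrophages, stood at 6067, 1079 and 776 CPM. The chemokine Ccl24 was 19.6-fold lower (16.1 to 24.1), from 772 to 39.4 CPM. Both Apoe-/- libraries lay below control for each of these 5 genes. Igf1, a growth factor, was among the members not past the rule, at a log2 ratio of -0.50.

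The mixture of macrophages differed with these genes. Cells with at least 3 UMIs of Lyve1, Folr2 and Cd163 summed, called resident-gated below, made up 249 of 307 control macrophages (81.1%) and 100 of 401 aneurysm macrophages (24.9%), and cells without any such UMI 21 (6.84%) and 225 (56.1%). A difference in the pooled macrophages can therefore stand for other proportions of cells or for another level per cell. Comparing only the resident-gated cells left 224 genes higher and 134 lower of 8120 measured. Of these, 179 and 124 were also past the rule in all macrophages. The cells without resident UMIs gave 57 and 52 of only 1744 measured, from only 21 control cells. Of these, 47 and 42 were shared with all macrophages. The numbers of measured genes differ, so the counts of the 2 subsets are not compared. Lyve1, Folr2 and Cd163 chose these subsets, so their levels within them are not results. This choice counted UMIs without thinning, and aneurysm macrophages were deeper (medians of 3204 UMIs in control and 6630 in aneurysm). Resident-gated cells of the 2 libraries were therefore not matched. They held Lyve1 at 915 CPM in control and 236 in aneurysm, and Cd163 at 608 and 183. The part of depth in the differences within these subsets was not tested.

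Several of the largest differences were present within the resident-gated cells. Spp1 stood at 5.33 CPM in control and 1828 in aneurysm, Fabp5 at 9.59 and 587, and Lgals3 at 422 and 2189. Ly6a stood at 8.53 and 835 CPM, a ratio of 97.9 (49.4 to 228), above the 163.9 CPM of the aneurysm cells without resident UMIs. Klf2 was less different within the resident-gated cells, at 846 and 450 CPM (ratio 0.531, 0.466 to 0.604), and was at 274 and 72.0 CPM in cells without resident UMIs. H2-Ab1, a chain of the class II antigen-presenting molecule, went from 4667 to 9957 CPM within resident-gated cells (ratio 2.13, 2.05 to 2.22). In cells without resident UMIs it stood at 12034 and 11985 CPM (ratio 0.996, 0.927 to 1.07). Pf4 was lower within the resident-gated cells too, at 6690 and 2015 CPM.

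**Figure D3:**
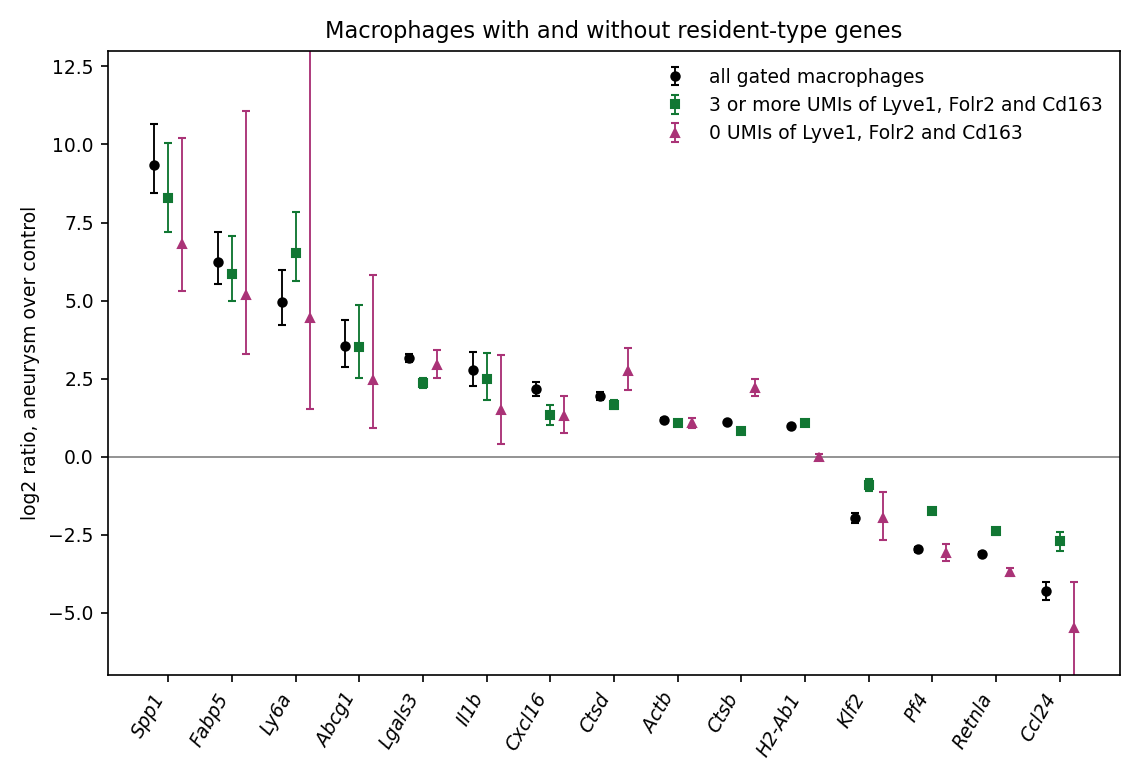
Log2 ratio of aneurysm over control level (vertical axis, exact 95% counting intervals) for 15 genes in all gated macrophages, in resident-gated cells and in cells without UMIs of Lyve1, Folr2 and Cd163. Intervals that run off the axis are open, since a library had no UMI. The H2-Ab1 log2 ratio is 1.09 in resident-gated cells and -0.01 in cells without resident UMIs.

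Antigen presentation and lysosome genes were on the higher side in macrophages. Of 10 measured class II genes 5 were higher and none lower past the rule, with a median of 0.92. H2-Ab1 rose from 5915 to 11720 CPM, H2-Eb1 from 3421 to 7065, and H2-Oa, a chain that modulates peptide loading, from 7.03 to 30.6 with 32.3% of the last level at the free RNA estimate. Of 26 lysosome genes 14 were higher and none lower, with a median of 0.81. Gla, an alpha-galactosidase, rose from 6.15 to 46.8 CPM (7.61-fold, 3.59 to 19.3). The class I and proteasome list held 1 of 23 past the rule, with a median of 0.48.

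Proteases and their inhibitors moved both ways. Of 19 measured, 10 were higher and 4 lower, with a median of 1.08. Mmp14, a membrane-bound collagenase, rose from 3.51 CPM (4 UMIs) to 124, a 35.2-fold ratio (13.6 to 130). Ctsk, a collagen-degrading cathepsin known from osteoclasts, went from 0.878 CPM (1 UMI) to 28.1 (ratio 32.0, 5.59 to 1281), with 31.2% of its UMIs in 1 cell. Timp1, an inhibitor of metalloproteinases, went from 0.878 CPM (1 UMI) to 17.9, a ratio of 20.4 (3.50 to 822). Mmp9, a gelatinase much studied in aneurysm, was lower, at 162 CPM in control, 45.9 under room air and 40.1 in aneurysm (4.03-fold, 3.17 to 5.14). In resident-gated cells it stood at 187 and 127 CPM, and in the cells without resident UMIs at 45.6 (3 UMIs) and 12.6.

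Of 18 inflammatory mediators measured in macrophages 7 were higher and 2 lower past the rule, with a median of 0.84. Il1b, the secreted interleukin 1 beta, stood at 28.1 CPM in control, 144 under room air and 195 in aneurysm (6.93-fold, 4.85 to 10.2). Ccl8, a monocyte-attracting chemokine, stood at 759, 2706 and 2902 CPM (3.82-fold, 3.57 to 4.11). Cxcl3, a neutrophil chemokine, had no UMI in control and 13.7 CPM in aneurysm, at least 5.21-fold higher, with 46.2% of its UMIs in 1 cell. Ccl6 and Ccl9 were the lower members, at log2 ratios of -0.73 and -0.69. Within resident-gated macrophages these ratios had the opposite sign, at 0.42 and 0.12. Genes of the NF-kB feedback list, which report and limit signalling through that factor, were higher in 9 of 20 and lower in none, with a median of 1.23. Bcl2a1b, a survival gene with near-identical copies, rose from 103 to 408 CPM (3.97-fold, 3.28 to 4.85), Bcl2a1d from 43.9 to 113, and the adhesion molecule Icam1 from 18.4 to 57.3.

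Immediate early genes, which respond to stimulation and also to tissue dissociation, did not follow. In macrophages none of 24 was higher and 7 were lower, with a median of -0.44. Klf2 was joined by its relative Klf4, which went from 105 to 32.7 CPM (3.22-fold lower, 2.44 to 4.27), and by Jund, an AP-1 subunit, which went from 994 to 445 (2.23-fold, 2.06 to 2.42). The interferon list had 3 of 33 higher and none lower, with a median of 0.61. Its members Irf7, a master regulator of interferon genes, Zbp1, a nucleic acid sensor, and Oasl2 rose from 23.7 to 133, 26.3 to 77.7 and 43.0 to 90.4 CPM.

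Metabolic lists also differed in macrophages. Glycolysis and hypoxia genes were higher in 11 of 22 and lower in none, with a median of 0.92. Pkm, the pyruvate kinase, rose from 224 to 710 CPM (3.17-fold, 2.78 to 3.63), the lactate transporter Slc16a3 from 7.90 to 34.8 and the hypoxia-responsive Ndrg1 from 3.51 to 20.8. Of 13 mitochondrially encoded genes none was higher and 4 were lower, with a median of -0.50, among them mt-Nd2 of complex I at 980 and 504 CPM. Of 29 genes of the oxidative stress (NRF2) list 6 were higher and none lower, with a median of 0.05 against 0.02 over all genes. These included Gsr, the glutathione reductase (19.3 to 80.2 CPM), Taldo1 of the pentose phosphate route (198 to 456) and the cystine transporter Slc7a11 (6.15 to 25.7). In the cystine transporter the level without cells that held RNA of another lineage was 1.80 CPM in control and 14.8 in aneurysm.

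Iron, complement and division genes were lower or mixed. Among 13 iron and haem genes 4 were lower and none higher, with a median of -0.20. Slc40a1 (ferroportin, the iron exporter) went from 44.8 to 8.09 CPM (5.54-fold lower, 3.32 to 9.49), and Blvrb, a biliverdin reductase, from 572 to 237. Of 12 complement genes 2 were higher and 2 lower. C3, the central component, rose from 1.76 CPM (2 UMIs) to 27.1, a ratio of 15.4 (4.13 to 130), while the anaphylatoxin receptor C5ar1 was 1.92-fold lower (774 to 403 CPM). Cell cycle genes were lower in 7 of 25 and higher in none, with a median of -0.64. Mki67, a proliferation antigen, went from 24.6 CPM in 14 cells to 5.63 in 13 cells, and Ube2c and Ccnb2, of mitotic exit and entry, went from 35.1 and 29.9 to 8.09 CPM each. For Mki67 25% of the UMIs were in 1 cell.

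Other genes near the top of the lower end were sparse. Barx2, a homeobox gene, went from 42.2 CPM in 29 cells to 1.06 in 3 cells (3 UMIs), a 40.0-fold difference (12.9 to 201). Lbx1, another homeobox gene, and Tmem246 had 17.6 and 18.4 CPM in control, in 17 and 20 cells, and no UMI in 401 aneurysm cells, at least 16.6-fold and 17.5-fold lower. The heat shock gene Hspb1 and the matricellular gene Cyr61 went from 25.5 and 32.5 CPM to 1.41 and 0.703. Over 17 chaperones 1 was higher and 2 lower, with a median of -0.10. Hspa5, the chaperone of the endoplasmic reticulum, was the higher one (460 to 836 CPM), and Hsp90ab1 of the cytosol went from 1064 to 565.

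**Figure D4:**
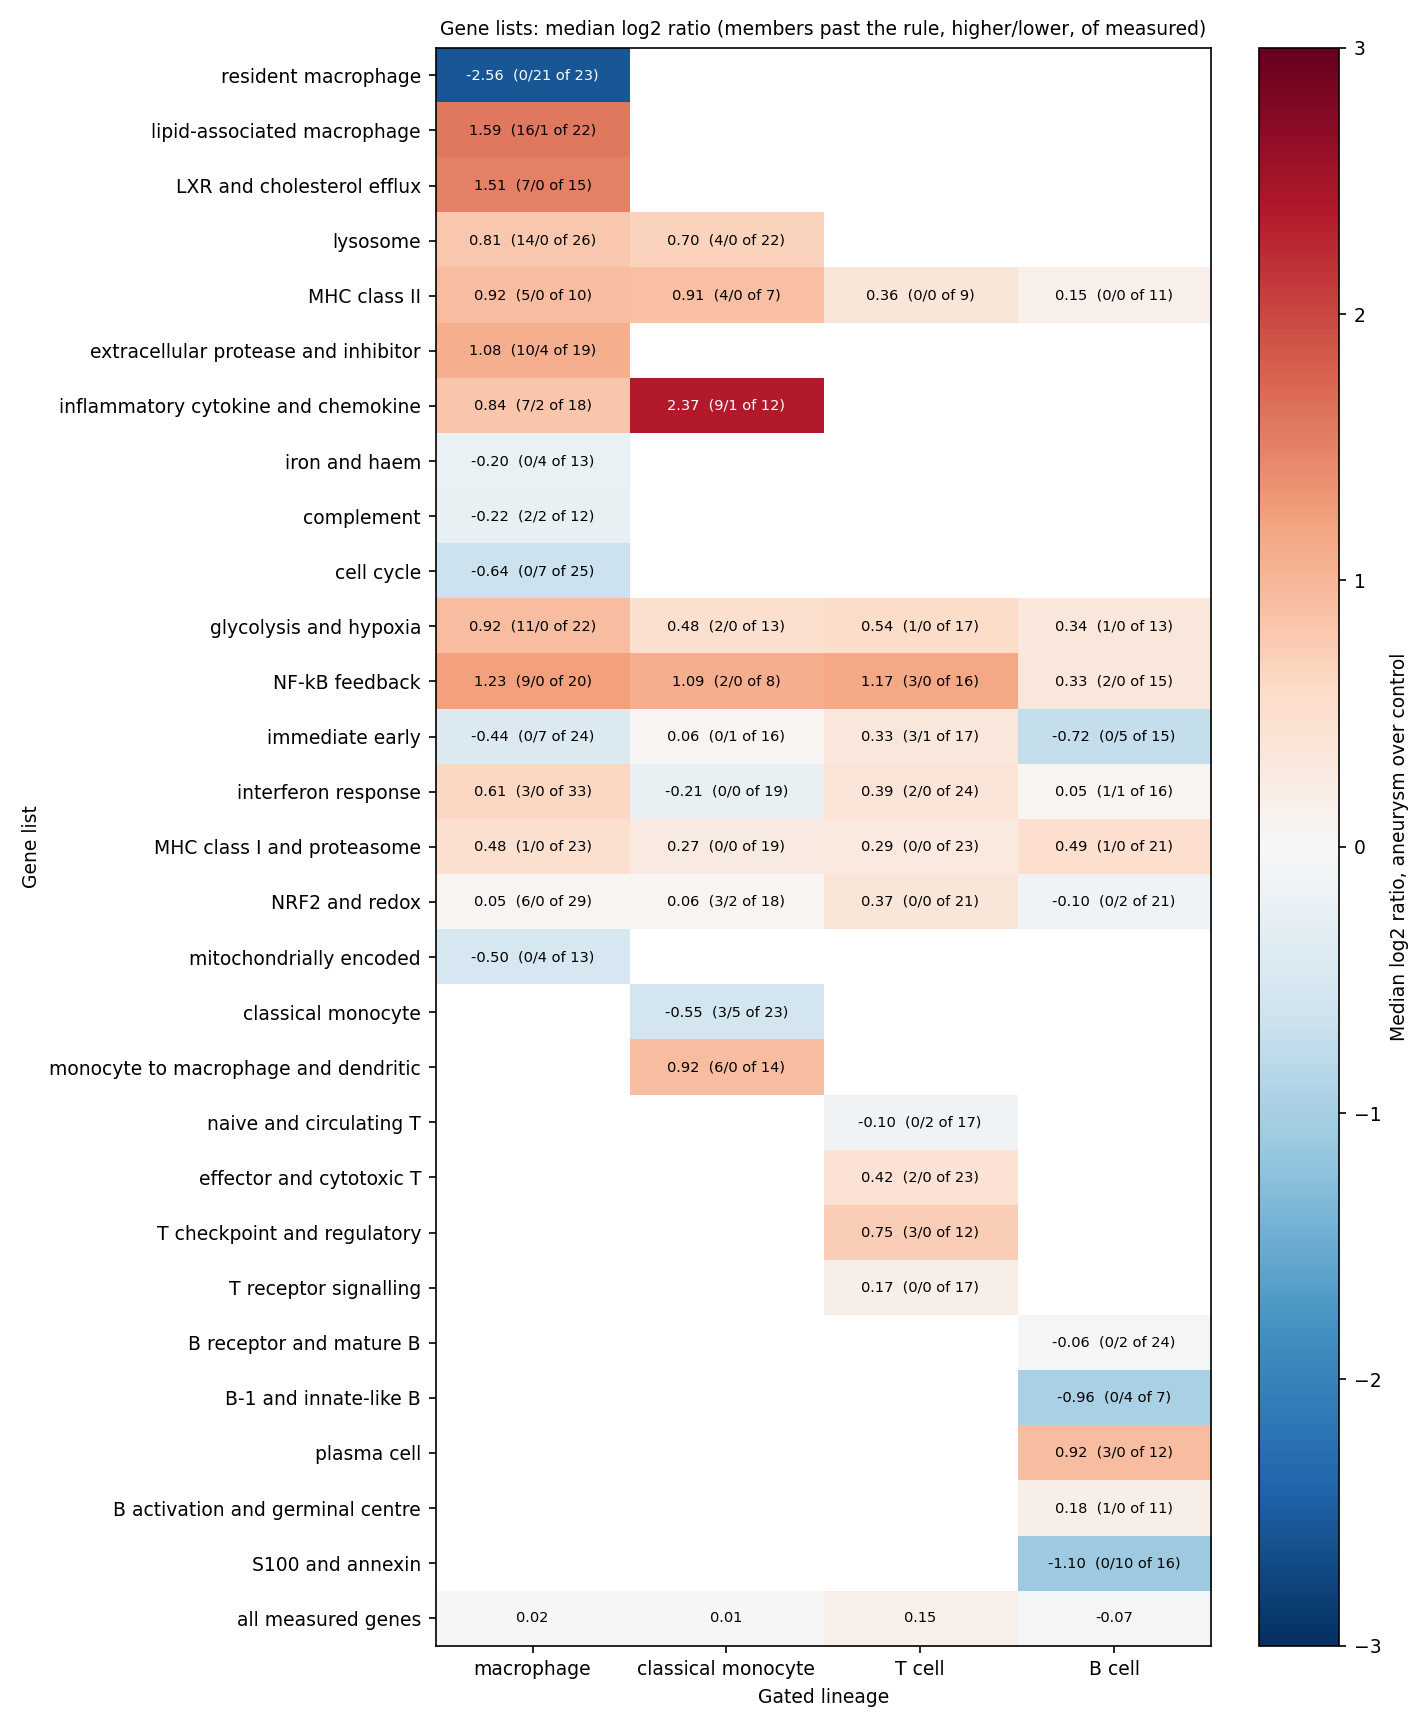
Median log2 ratio (aneurysm over control) of fixed gene lists in each lineage, with the median over all measured genes of that lineage as a reference. Each cell of the map also gives members past the rule, higher and lower, of those measured. NF-kB feedback medians lie between 0.33 and 1.23, and the resident macrophage median lies at -2.56.

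In classical monocytes, which leave the blood and carry Ly6C, 2371 genes were measured, of which 97 (4.09%) were higher and 47 (1.98%) lower, with a median log2 ratio of 0.01. Only 31 and 7 of these stayed past the rule in all 6 alternative choices. The 27 control cells gave 94170 UMIs, so a control level of 1 UMI corresponds to 10.6 CPM. In 1 of the 6 choices a cell needed at most 0.5% of UMIs from S100a8 and S100a9 and at least 4 of 8 monocyte markers. This kept 22 of the 27 control cells but only 89 of the 156 aneurysm cells. Of the 97 higher and 47 lower genes, 62 and 28 were past the rule among the kept cells. Whether the other gated cells were monocytes was not tested. The 7 lower genes were Apoe, Lyz2, Gm9733, Klf2, Klra2, Tnpo3 and Gm9843, of which Tnpo3 and Gm9843 were picked out after their values were seen.

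Lyz2, lysozyme of myeloid cells, stood at 58214 CPM in control, 16024 under room air and 19108 in aneurysm (3.05-fold lower, 2.96 to 3.14). Its near-identical copy Lyz1 makes its counts uncertain. Lyz2 was not alone among the 10 summed monocyte markers, of which only Csf1r (308 and 341 CPM) and Vcan (21.2 and 50.5) stood above control. Ccr2 (1062 and 582 CPM) and Ly6c2 (956 and 602) were among those that stood below it. Of 23 genes of the classical monocyte list 5 were lower and 3 higher, with a median of -0.55. Ifitm6, an interferon-induced membrane protein of monocytes, went from 1168 to 361 CPM (3.24-fold lower, 2.60 to 4.01). Thbs1, a matricellular protein, was on the higher side, at 10.6 CPM (1 UMI) and 192, a ratio of 18.1 (3.21 to 717). Klra2, an inhibitory receptor of the Ly49 family, stood at 287, 74.0 and 76.2 CPM in control, room air and aneurysm. The fractalkine receptor Cx3cr1 went from 276 to 99.2 CPM, but was past the rule in only 1 of the 6 alternative choices.

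Genes of the step from monocyte to macrophage or dendritic cell were higher in 6 of 14 and lower in none, with a median of 0.92. H2-Eb1 rose from 1041 to 3167 CPM, H2-Aa from 2400 to 5327, and Cd74, the invariant chain, from 8612 to 16142 (1.87-fold, 1.75 to 2.01). The class II list held 4 of 7 higher, with a median of 0.91. This depended on the gate: with at least 2 Chil3 and 4 Plac8 UMIs the median of that list was -0.09. Id2, a repressor needed for dendritic cells, rose from 63.7 to 522 CPM. Markers of conventional dendritic cells in the same cells summed to 297 CPM in control and 500 in aneurysm, with 4 of 8 at 0 in control and none in aneurysm. Among them Xcr1 stood at 0 and 36.7 CPM and Ccr7 at 0 and 83.6. Markers of plasmacytoid dendritic cells summed to 265 and 404 CPM, with 2 of 4 at 0 in control. The part of these cells in the class II and Id2 values was not tested.

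Inflammatory mediators of monocytes were higher in 9 of 12 measured and lower in 1, with a median of 2.37 (2.27 with genes at 0 in control set to their bound). Ccl2, the ligand of Ccr2, stood at 31.9 CPM (3 UMIs) in control, 254 under room air and 611 in aneurysm, a ratio of 19.2 (6.53 to 93.2), with 46.8% of its UMIs in 1 cell. Ccl7, a related chemokine, went from 10.6 CPM (1 UMI) to 337, with 53.7% in 1 cell. Cxcl2, a neutrophil chemokine, went from 10.6 CPM (1 UMI) to 232 (ratio 21.9, 3.89 to 867). It was past the rule in 4 of the 6 alternative choices, and with stricter gates its log2 ratio was 0.046. Il1b rose from 117 CPM in 3 cells to 478 in 86 cells (4.10-fold, 2.27 to 8.26), and Il1rn had no UMI in control and 253 CPM in aneurysm, at least 7.93-fold higher.

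Of 22 lysosome genes measured in monocytes 4 were higher and none lower past the rule, with a median of 0.70. Lgmn, an asparaginyl protease, rose from 223 to 1057 CPM (4.74-fold, 3.09 to 7.69), and Cstb, an inhibitor of cathepsins, from 329 to 1107. Higher genes outside that list had various roles. Ifitm1, an interferon-induced membrane protein with close relatives, had no UMI in control, 994 CPM under room air and 606 in aneurysm, at least 19.0-fold higher than control. Ass1, which makes argininosuccinate for arginine synthesis, had no UMI in control, 229 CPM under room air and 230 in aneurysm, at least 7.21-fold. Fth1, the ferritin heavy chain, rose from 2825 to 9654 CPM (3.42-fold, 3.03 to 3.87), Rnh1, a ribonuclease inhibitor, from 95.6 to 684, and Cfp (properdin) from 117 to 386. Of the glycolysis genes 2 of 13 were past the rule, Ldha (244 to 735 CPM) and Pkm (520 to 1159). Gpnmb had no UMI in control and 156 CPM in aneurysm, at least 4.90-fold higher.

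A few cells carried other monocyte results. Mmp3, a stromelysin of fibroblasts, had no UMI in control and 213 CPM in aneurysm, and 98.3% of its 232 UMIs were in 1 cell. Fibroblast and smooth muscle markers in monocytes summed to 31.9 CPM in control and 584 in aneurysm, with 5 of 7 markers at 0 in control and 1 in aneurysm. The neutrophil marker sum fell from 22162 CPM to 1497, while with thinned gates it stood at 234 and 2336, so its direction depended on which cells passed the gate.

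In T cells 4686 genes were measured, of which 114 (2.43%) were higher and 33 (0.704%) lower. Their median log2 ratio was 0.15, the largest shift of the 4 lineages. With ratios centred on this median the count of lower genes was 54. In all 6 alternative choices 21 higher and 8 lower genes stayed past the rule.

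Few genes of T cell identity and signalling were past the rule. None of 17 receptor signalling genes was past the rule, with a median of 0.17. Of 17 genes of naive and circulating T cells 2 were lower, Klf2 and Dapl1, a marker of naive cells (634 to 332 CPM, ratio 0.523, 0.441 to 0.624), with a median of -0.10. Ccr7, S1pr1 and Il7r, which guide or maintain circulating T cells, were at log2 ratios of -0.46, -0.84 and -0.45 and were not past the rule. Among cells with Cd4 Klf2 stood at 1852 and 327 CPM, and among cells with Cd8 at 1273 and 370. The lower Klf2 level was thus present in both co-receptor subsets. Dapl1 was lower past the rule among cells with Cd4 (648 and 210 CPM). Among cells with Cd8 it was not (667 and 480 CPM, ratio 0.720, 0.574 to 0.912). Ccr7 was also lower past the rule among cells with Cd4 (602 and 140 CPM, ratio 0.232, 0.121 to 0.475). It stood at 192 and 222 CPM among cells with Cd8 and was not past the rule there. The Cd4 values rest on 10 control cells.

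Few effector and regulatory genes were past the rule. Of 23 effector and cytotoxic genes 2 were higher, with a median of 0.42 beside 0.15 over all genes. The integrin chain Itgb1 was one of them (56.6 to 163 CPM, 2.88-fold, 1.70 to 5.31). Of 12 checkpoint and regulatory genes 3 were higher, with a median of 0.75. Ikzf2 (Helios), a transcription factor of regulatory and some chronically stimulated T cells, stood at 12.1 CPM (3 UMIs) in control, 94.1 under room air and 85.7 in aneurysm, a ratio of 7.07 (2.39 to 34.5). The costimulatory receptor Tnfrsf4 went from 4.04 CPM (1 UMI) to 57.9, and Rgs1, which dampens chemokine signalling, from 16.2 to 103 CPM. After thinning, 2.94% of control and 6.06% of aneurysm T cells had an Ikzf2 UMI (intervals 0.611% to 8.36% and 4.42% to 8.07%), so the share itself did not differ beyond counting error.

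Response genes of T cells were higher in small numbers. Of 16 NF-kB feedback genes 3 were higher, with a median of 1.17. Tnfaip3 (A20), an inhibitor of the pathway, went from 4.04 CPM (1 UMI) to 47.8 (ratio 11.8, 2.09 to 471), and Nfkb2 from 4.04 (1 UMI) to 44.0. Among 17 immediate early genes 3 were higher and 1 lower, with a median of 0.33. Junb and Jun, of the AP-1 factor, rose from 125 to 321 CPM (2.57-fold, 1.79 to 3.80) and from 20.2 to 81.4 CPM, while Klf2 of the same list was lower. The median of that list was below 0 in macrophages and B cells, at -0.44 and -0.72, and the difference between lineages was not tested. Ifitm3 rose from 263 to 723 CPM (2.75-fold, 2.15 to 3.58), with 35.6% of the aneurysm level at the free RNA estimate, and Ifitm2, chosen after its values were seen, from 162 to 673 CPM. Of 24 interferon genes 2 were higher, with a median of 0.39.

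Further T cell genes that stayed past the rule in all 6 choices were Ifngr1, Cd82, Sat1 and Serinc3, which were picked out after their values were seen. Ifngr1, a chain of the interferon gamma receptor, stood at 178 CPM in control, 560 under room air and 466 in aneurysm (2.62-fold, 1.94 to 3.63). After thinning it was found in 13.7% of control and 33.9% of aneurysm T cells. The tetraspanin Cd82 rose from 84.8 to 233 CPM and Sat1, a polyamine acetyltransferase, from 133 to 340. Myeloid genes also met all 6 choices in T cells, among them Cd209a (12.1 CPM, or 3 UMIs, to 158), Spi1 (40.4 to 166), which encodes a myeloid transcription factor, and Lgals3 (287 to 897). The free RNA estimates for them were 18.5%, 35.8% and 40.1% of the aneurysm level. Rps28, with near-identical ribosomal copies, was lower, at 9119 and 5340 CPM (1.71-fold, 1.63 to 1.79). Lyz1 went from 962 to 51.7 CPM in T cells, but without cells that held RNA of another lineage it stood at 40.5 and 3.29.

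In B cells 4056 genes were measured, of which 41 (1.01%) were higher and 85 (2.1%) lower, with a median log2 ratio of -0.07. Only 3 higher genes stayed past the rule in all 6 alternative choices (Jchain, Ly6a and Gm26917) and 13 lower ones. Gm26917 was picked out after its values were seen.

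Plasma cell genes were on the higher side. Of 12 measured 3 were higher and none lower, with a median of 0.92 beside -0.07 over all genes. Jchain had no UMI in 104 control cells, 1925 CPM in room air and 1983 in aneurysm, at least 132-fold higher, and 1 cell held 39% of its UMIs. Only 67 of 455 aneurysm B cells had a Jchain UMI. After thinning 5.93% of aneurysm B cells had one, against 3.94% of T cells and 3.99% of macrophages, which should lack it. In the room air library it was found in 35.2%, 33.9% and 37.5% of these lineages. Mzb1, a chaperone of immunoglobulin assembly, rose from 427 to 969 CPM (2.27-fold, 1.82 to 2.86), and Hsp90b1 of the endoplasmic reticulum from 226 to 536.

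B cell identity genes were mostly not past the rule. Of 24 measured none was higher and 2 were lower, with a median of -0.06. These were Cd79b of the B cell receptor (2307 to 1373 CPM, 1.68-fold lower, 1.51 to 1.86) and Cd24a, an adhesion protein of immature and mature B cells (447 to 229), which were past the rule in 3 and 4 of the 6 alternative choices. Vpreb3, a gene of B cell precursors and some mature B cells, was picked out after its values were seen. It stood at 578 CPM in control, 84.2 under room air and 104 in aneurysm (5.56-fold lower, 4.33 to 7.14), and after thinning 39.4% of control and 12.3% of aneurysm B cells had a UMI. At most 0.980% of the cells of any other gated lineage of the control library had a UMI after thinning.

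Immediate early genes were lower in 5 of 15 and higher in none, with a median of -0.72. Dusp2, a phosphatase of MAP kinases, stood at 126 CPM in control, 28.1 under room air and 27.0 in aneurysm (4.65-fold lower, 2.70 to 7.88). Jund went from 925 to 430 CPM and Klf6 from 131 to 35.3. Id3, an inhibitor of E proteins that also shapes B cell fate, and chosen after its values were seen, went from 95.5 to 30.5 CPM (3.13-fold lower, 1.73 to 5.48). Fam129c and B3gnt8 were likewise lower, at 60.3 and 15.2 CPM and at 126 and 27.0 CPM, and Fam129c was also picked out after its values were seen.

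The S100 and annexin list held 10 of 16 lower and none higher, with a median of -1.10. Without cells that held RNA of another lineage 13 were measured, 1 of them higher and 1 lower, with a median of -0.30. Monocyte markers in B cells summed to 5398 CPM in control and 2134 in aneurysm. S100a6 went from 1111 to 224 CPM, yet without cells that held RNA of another lineage it stood at 325 and 154. Fn1, the matrix glycoprotein fibronectin and no member of that list, went from 327 CPM in 5 cells to 24.2 in 18 cells, and without those cells stood at 14.1 and 9.15. Crip1, a LIM-domain protein of the list, stayed past the rule in all 6 choices. It went from 4192 to 1049 CPM (4.00-fold lower, 3.67 to 4.35), and without such cells from 1660 to 863. The list of innate-like B-1 cells shares members with it, and held 4 of 7 lower and none higher, with a median of -0.96. Without such cells none of 6 was past the rule, with a median of -0.35.

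Signalling and interferon genes of B cells differed in few members. Cd83, an activation marker, rose from 106 to 253 CPM (2.40-fold, 1.55 to 3.93) and Nfkb1 from 40.2 to 124, but these were past the rule in only 1 and 2 of the 6 choices. Of 16 interferon genes 1 was higher and 1 lower past the rule, with a median of 0.05. H2-Q7, a class I gene with near-identical copies, rose from 106 to 275 CPM. Pfkp, a phosphofructokinase, went from 5.03 CPM (1 UMI) to 61.6, a ratio of 12.3 (2.15 to 490).

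The calls of the lineages held to a different extent when cells or RNA were chosen differently. The 6 choices kept cells of more than 1 gate, used stricter gates, gated on cells thinned to 1000 UMIs, subtracted free RNA, left out the top cell of each gene, or left out cells with RNA of another lineage. All 6 kept 312 of 444 higher and 283 of 422 lower macrophage genes, 31 of 97 and 7 of 47 in monocytes, 21 of 114 and 8 of 33 in T cells, and 3 of 41 and 13 of 85 in B cells. Thinned gates kept the fewest higher T cell genes (33 of 114) and B cell genes (13 of 41) of any of the choices. Of the called genes followed by name here, 62 of 73 in macrophages, 27 of 41 in monocytes, 20 of 37 in T cells and 13 of 33 in B cells were past the rule in all 6. Those past it in 3 or fewer were Cx3cr1, Cd83 and Mmp3 in monocytes, Irf7, Ctsd, Ly6a and Nfkb2 in T cells, and Cd83, Nfkb1, Cd79b, Cxcl16 and S100a6 in B cells.

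**Figure D5:**
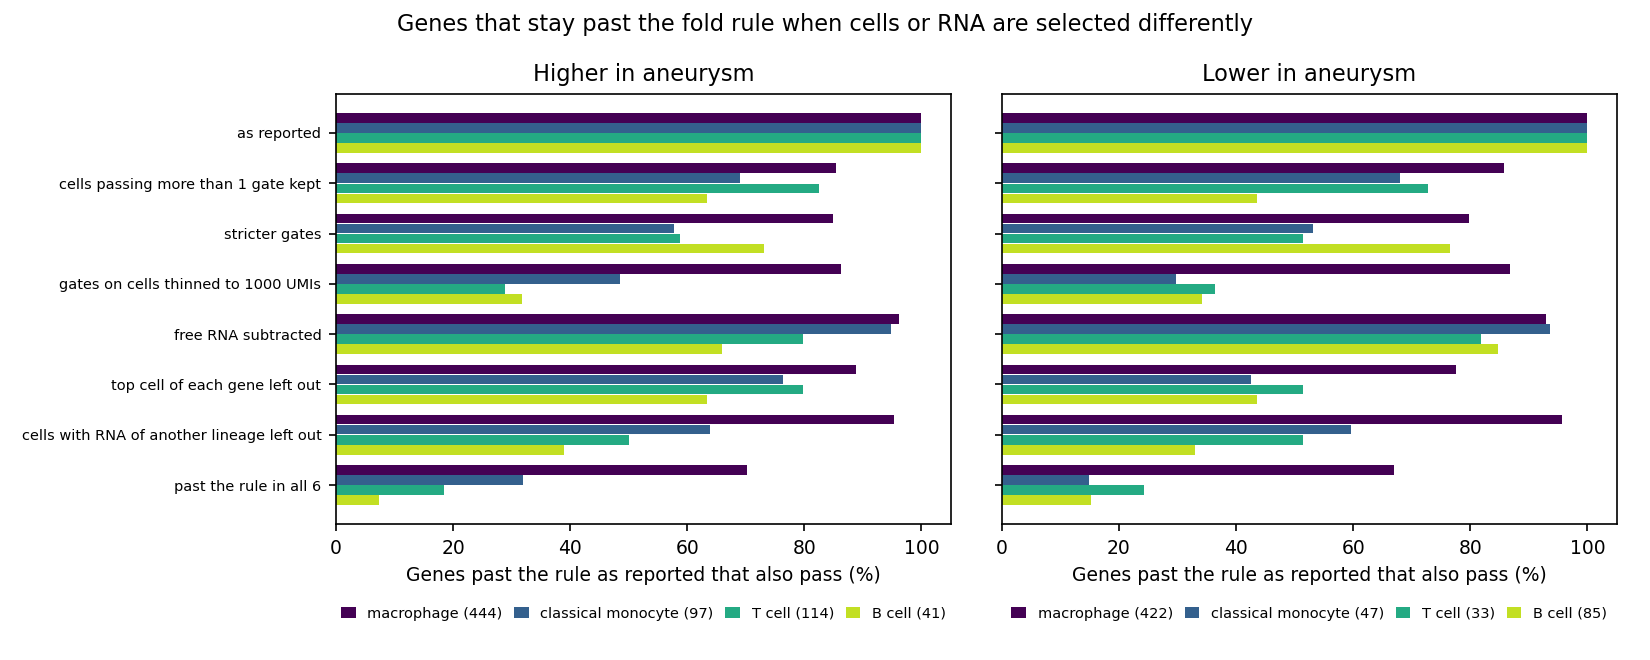
Percentage of the genes past the rule in each lineage that are also past it, in the same direction, under each of 6 other choices of cells or RNA and under all 6. Macrophage genes hold in the largest share (312 of 444 higher and 283 of 422 lower in all 6), and higher B cell genes in the smallest (3 of 41).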

How the data were processed

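Leukocytes of pooled mouse aortas were profiled with droplet 3′ single-cell RNA sequencing (10x Genomics). The deposited matrices hold raw UMI counts per gene and barcode for 27998 genes (mm10; Cell Ranger and STAR, per the submitters' processing notes, which state no version). The 782 control, 1851 room air and 2842 aneurysm barcodes in the files (738, 1736 and 2685 cells per the labels) held 2568192, 9998517 and 16698309 UMIs.

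Barcodes with at least 200 genes and at most 10% mitochondrial UMIs were kept. Scrublet (in scanpy 1.11.5) called only 2, 1 and 0 doublets by itself, so the barcodes with the highest scores were removed instead, 0.8% of barcodes per 1000 (5, 27 and 64). Cells were gated on raw counts, and UMIs were summed per library and lineage with numpy 2.4.6. A gene was measured where the mean of its 2 levels was worth at least 5 UMIs in the smaller sum. Ratios carry exact conditional binomial 95% intervals (scipy 1.17.1), log2 ratios add 0.5 to counts, and shares carry exact Clopper-Pearson intervals. Intervals cover counting error only, and no test across animals was possible. The procedure was tested on simulated sums that held counting error only. UMIs gathered in 1 or a few cells were not simulated, so that test does not cover genes of this kind. The share of free RNA in a lineage was estimated from markers of other lineages, and its profile was taken as that of the whole library.

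The members and lists were chosen with earlier results of these data known. Named genes were, per lineage, the 8 higher and 8 lower with the bound farthest from 1, up to 3 members per list with named exceptions, up to 12 shared genes per direction, and Apoe. Ccl8 in macrophages, Id2 and Klra2 in monocytes, Spi1 in T cells and B3gnt8 in B cells were added after their values were seen, beside those said to be so in the text. Leaving out cells with RNA of another lineage was an alternative chosen after seeing the data. Some members of the lists are counted but not reported by name here.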

Additional observations from a re-analysis of the deposited data

Results flagged for a closer look

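Some genes lay past the 1.5-fold rule in opposite directions in different lineages of the same libraries. The values below are differences of log2 ratios with 95% intervals for counting error, and with 1 library on each side these differences were not tested.

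C5ar1, the receptor for complement fragment C5a, was higher in monocytes (74.3 CPM in control and 284 in aneurysm) and lower in macrophages (774 and 403), a difference of 2.78 (1.72 to 3.83). Gadd45g, a stress-inducible gene, was higher in macrophages (15.8 and 64.7 CPM) and lower in B cells (65.3 and 13.9), a difference of 4.25 (3.05 to 5.46). Serinc3, a multi-pass membrane protein, was higher in T cells (125 and 298 CPM) and lower in macrophages (1215 and 665), a difference of 2.10 (1.58 to 2.62). Cd209a, a lectin of dendritic cells, was higher in T cells (12.1 and 158 CPM) and lower in macrophages (227 and 97.4), a difference of 4.70 (3.16 to 6.24). In T cells the free RNA estimate was 18.5% of its aneurysm level, and its control level rested on 3 UMIs.

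Marcksl1, which links the membrane to actin, was lower in macrophages (358 and 204 CPM). It was higher in monocytes (74.3 and 339), T cells (28.3 and 106) and B cells (40.2 and 198). These differed from macrophages by 2.91 (1.85 to 3.97), 2.63 (1.57 to 3.69) and 3.03 (2.03 to 4.03). The free RNA estimate was 31.5% of the aneurysm level in T cells and 15.5% in B cells. Gadd45g and Serinc3 were picked out after their values were seen. Within resident-gated macrophages the ratio was 0.630 for C5ar1, 0.667 for Serinc3, 0.721 for Cd209a and 0.796 (0.672 to 0.941) for Marcksl1. All 4 were below 1 but not past the rule there, while Gadd45g was past it at 5.39 (2.76 to 11.5). In macrophages without resident UMIs Cd209a was lower past the rule, with only 21 control cells. The part of the macrophage mixture in these differences was not tested.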

How the results depend on the processing

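The counts of genes past the rule moved by over 1.5 times in 54 of 128 alternative values. In macrophages (444 higher and 422 lower) they were 208 and 215 with the interval beyond 2-fold, and the filter of 20 UMIs left 270 lower. Resident-gated cells gave 224 and 134 (8120 genes measured), and cells without resident-gate UMIs 57 and 52 (1744 measured). In monocytes (97 and 47) thinned gates gave 58 and 21, the filter of 20 UMIs 38 and 19, and 2-fold 46 and 14. Lower monocyte genes numbered 76 with cells of more than 1 gate kept and 20 without the top cell. In T cells (114 and 33) the counts were 261 and 63 with cells of more than 1 gate, 54 and 18 with thinned gates, 47 and 21 with 20 UMIs, 40 and 17 with 2-fold, and 74 and 19 without cells that held RNA of another lineage. They were 15 and 14 in Cd4 T cells (529 genes measured) and 35 and 17 in Cd8 T cells (2814 measured). Lower T cell genes numbered 54 with ratios centred on the median gene, 55 with totals without mitochondrial, ribosomal, haemoglobin and immunoglobulin genes, and 17 without the top cell. In B cells (41 and 85) the counts were 17 and 45 with thinned gates, 16 and 35 with 20 UMIs, 15 and 43 with 2-fold, and 19 and 43 without cells that held RNA of another lineage. With cells of more than 1 gate 109 were higher, and without the top cell 37 were lower. Shared genes (25 higher and 15 lower) numbered 78 and 25 with cells of more than 1 gate, 11 and 3 with thinned gates, 8 and 8 with 20 UMIs, 10 and 7 with 2-fold, and 13 and 6 without cells that held RNA of another lineage. Subtracting free RNA left 14 higher and leaving out the top cell 7 lower. Stricter filters and smaller sets of cells lower such counts by construction, and for the others the cause was not tested.

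The ratio of macrophage shares (0.364) was 0.586 with cells of more than 1 gate kept and 0.551 with thinned gates. Keeping those cells gave 3.09 in monocytes (1.61), 2.42 in T cells (1.94) and 1.57 in B cells (1.22), and stricter gates gave 2.55 in T cells. Of 561 list medians 530 stayed within the margin. The MHC class II median turned to -0.092 in monocytes with stricter gates, as did Cd74, and to -0.063 in B cells with cells of more than 1 gate. Of 2499 gene ratios 2142 kept direction and side of the rule, 332 fell short of it, and 16 turned. A further 9 had no ratio because neither library kept a UMI: with free RNA subtracted Spp1 in B cells and Jchain in T cells and macrophages, with thinned gates Mmp3 in monocytes, and in macrophages without resident-gate UMIs 5 genes. In macrophages without resident-gate UMIs the log2 ratio was -0.68 for Ctsk, -0.44 for Gadd45g, -0.0068 for H2-Ab1, -0.33 for Ndrg1 and -0.052 for Slc16a3. In resident-gated macrophages it was 0.42 for Ccl6 and 0.12 for Ccl9. In Cd4 T cells, of which control held 10, it was -0.44 for Fabp5, -0.18 for Ly6a, -0.030 for Marcksl1 and 1.56 for Lyz1. Mmp3 in monocytes was at -1.79 with stricter gates, -0.36 without the top cell and -1.51 without cells that held RNA of another lineage, and Fn1 in B cells at 0.054 with thinned gates. No paired analysis was possible because each group was 1 library, and no replicate could be left out. An alternative for B cells that needed Ighd was not run.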
